A study of Arabidopsis thaliana with 12 samples.

Results

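The cysteine-rich receptor-like kinases (CRKs) of Arabidopsis thaliana were followed in 14-day-old seedlings of 4 genotypes. The 42 loci named CRK1 to CRK34, CRK36 to CRK42 and CRK45 were chosen by locus identifier from the 29420 loci of the counts table, and each of the 42 matched a gene of the TAIR10.1 annotation. No count entered that choice, but the family was picked from earlier results of these data, in which CRK23 stood among the largest falls in brm-1 ref6-1 against wild type. Values of that comparison are therefore given as a description, with no p-value, and so are those of CRK23 against the same wild-type libraries. The 20 members CRK5 to CRK24 form a tandem array on chromosome 4, and they were set beside the other 22 members.

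CRKs are receptors of the cell surface. Outside the membrane they carry DUF26 domains, each with a conserved spacing of cysteines, and inside it a protein kinase. Transcripts of many CRKs are known to respond to pathogens, salicylic acid and reactive oxygen species, and several members strengthen immune responses or cause cell death when overproduced. BRM is the ATPase of a SWI/SNF complex, which moves or removes nucleosomes, and REF6 is a demethylase that removes from histone H3 the methyl groups placed by Polycomb proteins and binds DNA through zinc fingers.

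RNA was taken from whole seedlings, grown on MS-based medium in long days, of the wild type (WT), of brm-1 and of ref6-1 plants, and of brm-1 ref6-1, in which both mutant alleles are combined. The labels name neither an accession nor the nature of the alleles. There were 3 libraries per genotype and 12 altogether, of 10119148 to 11860892 counts each. The labels speak both of 3 biological replicates and of RNA pooled from replicates, so the spread behind the p-values is that between these samples and could be technical only. In whole seedlings, fewer cells of a type and less RNA per cell cannot be told apart. BRM was counted 3282, 2998 and 3067 times in WT, 3012, 2761 and 3003 times in ref6-1, and 43, 50 and 74 times in brm-1. In brm-1 ref6-1 it was counted 60 and 35 times in replicates 1 and 2 but 438 times in replicate 3. REF6 was counted 908 to 1116 times in WT and 874 to 892 times in ref6-1, and since a mutant allele can still be transcribed, these counts do not check the ref6-1 label.

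Of the 42 members, 40 passed the filter on low counts, 20 of the array and 20 of the others. CRK1, also named RKF2, and CRK33 had 0 counts in all 12 libraries, which allows levels of up to 0.253 to 0.296 CPM (counts scaled to a common library size) at a floor of 3 counts per library. Among the 40 measured members, libraries of a genotype shared a direction. The highest of the 3 values lay in brm-1 replicate 3 for 29 of 40 members and in WT replicate 2 for 21 of 40. The lowest lay in ref6-1 replicate 1 for 27 of 39 and in WT replicate 1 for 23 of 40. Members with a mean under 1 CPM in the genotype were left out, which in ref6-1 was CRK23 (0.789 CPM). A list of 23 defence and reactive oxygen genes moved with them, since its summed level was 1366 CPM in ref6-1 replicate 1 against 1632 and 1808 CPM in the other ref6-1 libraries, and 1944 CPM in brm-1 replicate 3 against 1719 and 1795 CPM in the other brm-1 libraries. The part of this shared spread in the results was not tested, and results that rest on single libraries are given with and without them.

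**Figure D1:**
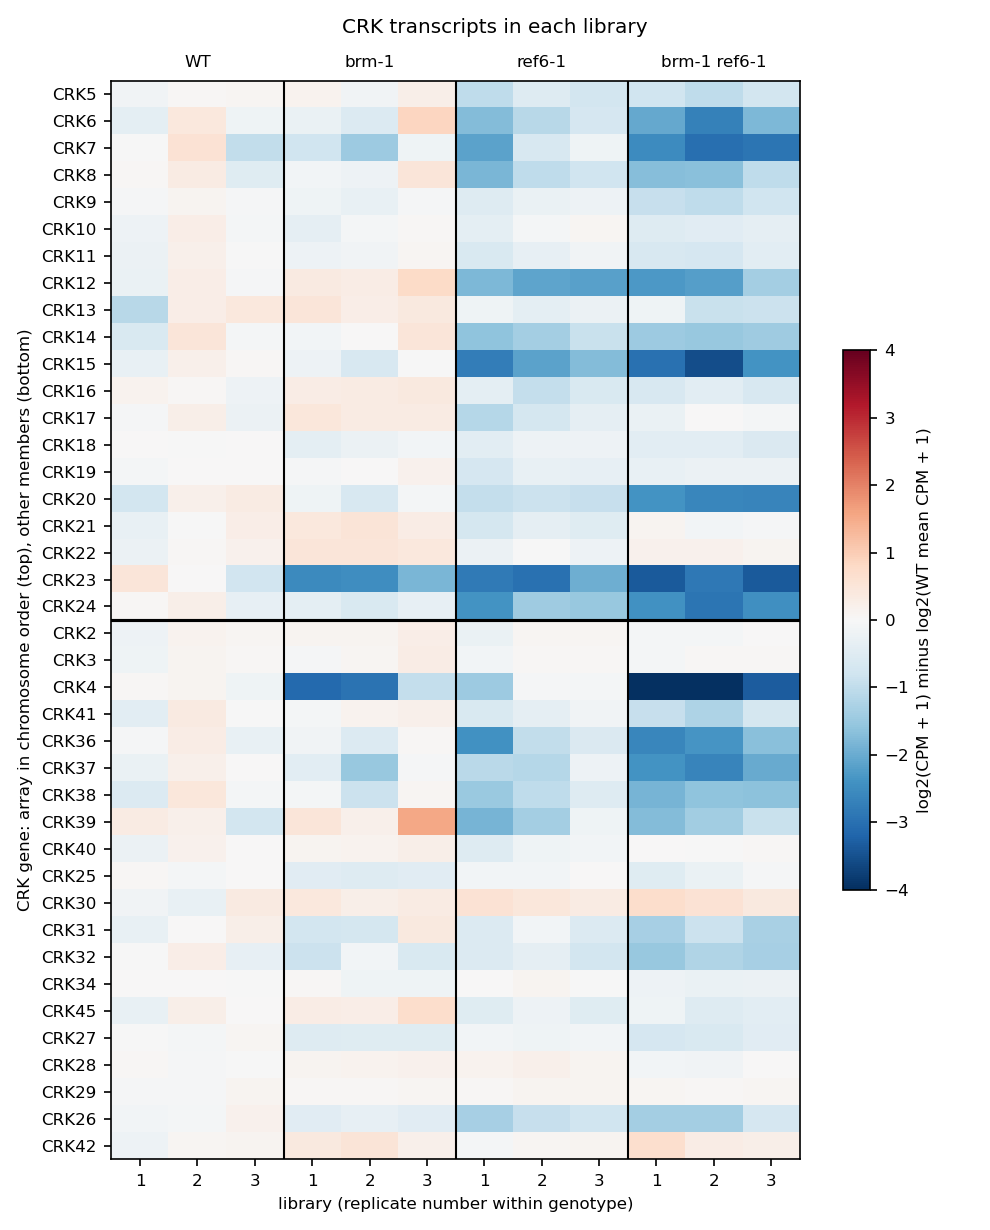
Each row is a CRK gene and each column a library, with the 20 array genes above the black line in chromosome order and 20 other members below it. The colour gives log2(CPM + 1) minus log2 of the WT mean CPM + 1, and CRK12, CRK15, CRK23 and CRK24 are blue in every ref6-1 and brm-1 ref6-1 library.

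The array covers 74214 bases of chromosome 4, from 12117491 to 12191704 in TAIR10.1, with 9 genes on the plus strand and 11 on the minus strand. Of the 22 other members, 17 also lie on chromosome 4. In 38 of the 41 proteins compared at least 2 copies of the cysteine spacing of DUF26 were found, while CRK24 and CRK27 had 1 and CRK45, also named ARCK1, had 0. The protein of CRK1 was left out because its annotated reading frame is interrupted. Median identity between proteins was 46.1% for pairs within the array, 40.0% for pairs of other members and 40.2% between both sets. Exact stretches of 100 bases occurred in the exons of more than a single member for CRK6 and CRK8 (11% and 9.96% of their stretches) and for CRK13 and CRK22 (10.7% and 11.9%), so reads of these pairs could be shared, and such copies made up less than 2% in CRK17, CRK18, CRK39 and CRK40. CRK10 and CRK11, CRK16 and CRK17, and CRK28 and CRK29 overlap each other, and CRK19, CRK25, CRK29, CRK42 and CRK45 overlap genes outside the family. Their counts are uncertain because the strand setting of the counting is not given in the sources used here. CRK16 and CRK17 lie on the same strand, as do CRK28 and CRK29, so a strand setting would not separate their shared bases.

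Upstream sequences are shown for 5 of the 6 array genes that were lower in ref6-1 whichever library was left out, since they differ in the letters before their start. The sixth, CRK19, is not shown because it holds no TTGAC, like CRK12. They were read from TAIR10.1, 5′ to 3′ on the strand of the gene, up to 250 bases or to the neighbouring gene, and capitals mark TTGAC, the core of the W-box bound by WRKY factors, on either strand.
CRK5, chr4:12120221-12120470, minus strand: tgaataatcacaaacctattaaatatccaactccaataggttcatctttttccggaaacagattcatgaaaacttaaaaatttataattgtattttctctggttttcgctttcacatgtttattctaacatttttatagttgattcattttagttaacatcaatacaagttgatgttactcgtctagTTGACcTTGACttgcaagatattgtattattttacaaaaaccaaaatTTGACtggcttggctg
CRK12, chr4:12148042-12148291, minus strand: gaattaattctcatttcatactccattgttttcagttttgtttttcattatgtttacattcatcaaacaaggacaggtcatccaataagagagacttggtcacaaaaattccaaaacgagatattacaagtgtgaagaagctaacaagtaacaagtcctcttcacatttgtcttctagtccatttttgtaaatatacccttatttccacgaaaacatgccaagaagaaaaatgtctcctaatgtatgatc
CRK23, chr4:12185119-12185368, plus strand: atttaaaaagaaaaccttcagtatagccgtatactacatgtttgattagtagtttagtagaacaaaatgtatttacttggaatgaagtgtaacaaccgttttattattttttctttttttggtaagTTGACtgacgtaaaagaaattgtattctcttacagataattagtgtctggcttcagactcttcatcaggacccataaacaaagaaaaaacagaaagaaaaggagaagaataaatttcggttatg
CRK24, chr4:12191705-12191850, minus strand: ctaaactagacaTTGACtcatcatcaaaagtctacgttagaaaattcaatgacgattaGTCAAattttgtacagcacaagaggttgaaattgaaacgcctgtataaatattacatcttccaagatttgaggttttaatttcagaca
CRK15, chr4:12160352-12160381, minus strand, a stretch that also holds the REF6 motif: agtagtaGTCAAtcCTCTGTTTcacgtaac

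The TTGAC core was found 3 times before CRK5, 2 times before CRK24 and CRK15, 1 time before CRK23 and not before CRK12. For CRK15 the count is that of its whole window of 198 bases, and the printed stretch of 30 bases holds only 1 of the 2. In windows of 250 bases, neighbouring genes included, it occurred before 15 of the 20 array genes (75%), before 68.2% of the other members and before 44.9% of 27444 protein-coding genes. The motif bound by the zinc fingers of REF6, searched as CTCTGCTC, CTCTGCTT, CTCTGTTC and CTCTGTTT on both strands, occurred before 5% of the array genes, in CRK15 alone, before 9.09% of the other members and before 5.77% of protein-coding genes. Within gene bodies it was found in 95% of the array genes and 90.9% of the other members, against 54.8% of protein-coding genes and 66.3% of the 14508 genes between 1824 and 5023 bases long, the length range of the array genes. Per kilobase of gene body this was 0.698 in the array, 0.689 in the other members and 0.446 in the genes of that length range. These matches describe the letters only, and binding was not measured.

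In WT the levels per kilobase of exon, on the scale of CPM per kb, spanned more than an order of magnitude. CRK18 (49.0), CRK10 (48.8), CRK19 (41.5) and CRK11 (38.6) were the highest of the array, and CRK8 (1.41), CRK23 (3.01), CRK16 (3.23) and CRK20 (4.38) the lowest. Among the other members CRK2 (36.3), which acts with the NADPH oxidase RBOHD in the production of reactive oxygen, CRK4 (32.0), CRK40 (30.3) and CRK29 (29.9) were the highest, and CRK39 (1.18) and CRK32 (1.19) the lowest of those measured. The order among close neighbours, such as CRK18 and CRK10, is within the spread of the libraries.

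The first question was which CRK transcripts differed in ref6-1 from WT, whose libraries also served the comparison from which the family was picked. Of the 20 array members, 14 were lower in ref6-1 and 0 were higher, with changes of all 20 between -3.53 and -0.12 and a median of -0.76 on the log2 scale. Of the 20 other members measured, 1 fell, CRK26, and 0 rose, with 15 changes below 0 and a median of -0.32. The difference between both sets was not tested. Over all genes tested, 5.63% were lower and 2.33% higher in this comparison, and their median change was 0.00. Calls were made where the adjusted p of edgeR's quasi-likelihood test lay under 0.05, with Benjamini-Hochberg adjustment over 22076 genes.

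CRK12 (AT4G23200, chromosome 4, 12145035 to 12148041) had 19.0, 27.6 and 21.8 CPM in the WT libraries and 5.86, 4.54 and 4.29 CPM in ref6-1. The groups lay far apart, with a 4.64-fold lower level by the edgeR fit, a log2 change of -2.21 ± 0.26 (SE, n = 3 per group, edgeR adjusted p = 0.000482). In brm-1 the same gene had 29.5, 28.0 and 39.4 CPM, all above the WT libraries. That change of 0.50 ± 0.22 did not pass (edgeR adjusted p = 0.137). In brm-1 ref6-1 CRK12 had 3.85, 4.15 and 8.18 CPM. CRK15 (AT4G23230, 12157827 to 12160279) had 17.9, 25.7 and 22.9 CPM in WT and 19.0, 13.9 and 22.0 in brm-1, against 2.40, 4.26 and 5.94 in ref6-1 and 1.93, 0.987 and 3.44 in brm-1 ref6-1. Both genotypes with ref6-1 lay below both without it, and against WT the ref6-1 change was -2.40 ± 0.33 (edgeR adjusted p = 0.00139).

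CRK24 (AT4G23320, 12189089 to 12191704), at the end of the array, had 23.1, 26.4 and 17.5 CPM in WT and 16.9, 14.2 and 17.7 in brm-1, against 3.46, 7.79 and 7.22 in ref6-1 and 3.37, 2.07 and 3.25 in brm-1 ref6-1. It showed the same order as CRK15, and the change in ref6-1 was -1.86 ± 0.25 (edgeR adjusted p = 0.00091). CRK5 (AT4G23130, 12117491 to 12120220), at the other end, is known to cause cell death when overproduced. It had 48.2, 55.5 and 57.3 CPM in WT and 26.1, 36.9 and 32.2 CPM in ref6-1, which do not overlap, a change of -0.76 ± 0.13 (edgeR adjusted p = 0.00629). CRK19, which can also cause cell death, fell by 0.42 ± 0.09 (edgeR adjusted p = 0.013), from 104, 111 and 111 to 68.1, 88.9 and 86.9 CPM, a call that was lost (0.0598) when the fit held only WT and ref6-1, and its count is uncertain because it overlaps another gene.

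CRK23 (AT4G23310, 12185369 to 12188961) had 13.3, 9.36 and 4.97 CPM in WT and 0.762, 0.819 and 1.86 in brm-1, against 0.444, 0.278 and 1.64 in ref6-1. In brm-1 ref6-1 it had 0, 0.395 and 0 CPM, and the 0.395 CPM stand for 4 counts. Each mutant library thus lay below each WT library, with changes of -3.53 ± 0.61 in ref6-1 and -3.02 ± 0.57 in brm-1, both against the WT libraries that took part in the choice of the family. Outside the array, CRK26 (AT4G38830, chromosome 4, 18122175 to 18124943) had 8.78, 9.0 and 10.9 CPM in WT and 6.69, 7.37 and 6.64 in brm-1, against 3.20, 4.63 and 5.02 in ref6-1 and 3.08, 3.16 and 5.58 in brm-1 ref6-1. Its change in ref6-1 was -1.16 ± 0.23 (edgeR adjusted p = 0.00843). The other members with values as low, CRK39 (-1.51 ± 0.79), CRK38 (-1.43 ± 0.48) and CRK36 (-1.18 ± 0.40), did not pass (edgeR adjusted p = 0.283, 0.0915 and 0.105). The calls of CRK5, CRK12, CRK15, CRK19, CRK23, CRK24 and CRK26 were the 7 of 15 that held without each of the 12 libraries in turn, and that of CRK23 is counted here as a description only.

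The other 8 array calls in ref6-1 depended on single libraries. CRK8 (AT4G23160) had 5.96, 7.34 and 3.80 CPM in WT and 5.25, 4.82 and 8.31 in brm-1, against 0.888, 2.32 and 2.83 in ref6-1 and 1.06, 1.09 and 2.32 in brm-1 ref6-1. It fell by 1.5 ± 0.40 in ref6-1 (edgeR adjusted p = 0.0407, and 0.12 without WT replicate 2), and its reads could be shared with CRK6. CRK14 (AT4G23220) had 25.7, 55.2 and 37.4 CPM in WT and 36.7, 40.2 and 55.8 in brm-1, against 12.2, 14.6 and 21.0 in ref6-1 and 13.9, 13.2 and 14.0 in brm-1 ref6-1. It fell by 1.30 ± 0.29 in ref6-1 (edgeR adjusted p = 0.0257, and 0.0993 without ref6-1 replicate 1). CRK20, another member that causes cell death when overproduced, fell by 1.06 ± 0.28 (edgeR adjusted p = 0.0358, and 0.121 without WT replicate 3).

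Smaller falls in ref6-1 were those of CRK16 (-0.76 ± 0.19), CRK17 (-0.71 ± 0.18), CRK21 (-0.53 ± 0.14), CRK9 (-0.32 ± 0.09) and CRK18 (-0.27 ± 0.07). Their edgeR adjusted p ran from 0.0311 to 0.0462, and each went above 0.05 when single libraries were left out, up to 0.117 for CRK16 and 0.111 for CRK17 (both without ref6-1 replicate 2), and to 0.156 for CRK21, 0.142 for CRK9 and 0.136 for CRK18 (all 3 without ref6-1 replicate 1). CRK9, also named EP1, is a short member of 265 residues. The array members that did not pass were CRK6 (-1.15 ± 0.44), CRK7 (-0.85 ± 0.56), CRK10 (-0.12 ± 0.15), CRK11 (-0.35 ± 0.14), CRK13 (-0.27 ± 0.34) and CRK22 (-0.15 ± 0.08). The number of array members lower in ref6-1 was 6 without WT replicate 2 or ref6-1 replicate 2, 7 without ref6-1 replicate 1, 8 without brm-1 ref6-1 replicate 2, 9 without WT replicate 3 and 10 to 13 without the other libraries. With only the WT and ref6-1 libraries in the fit it was 5.

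**Figure D2:**
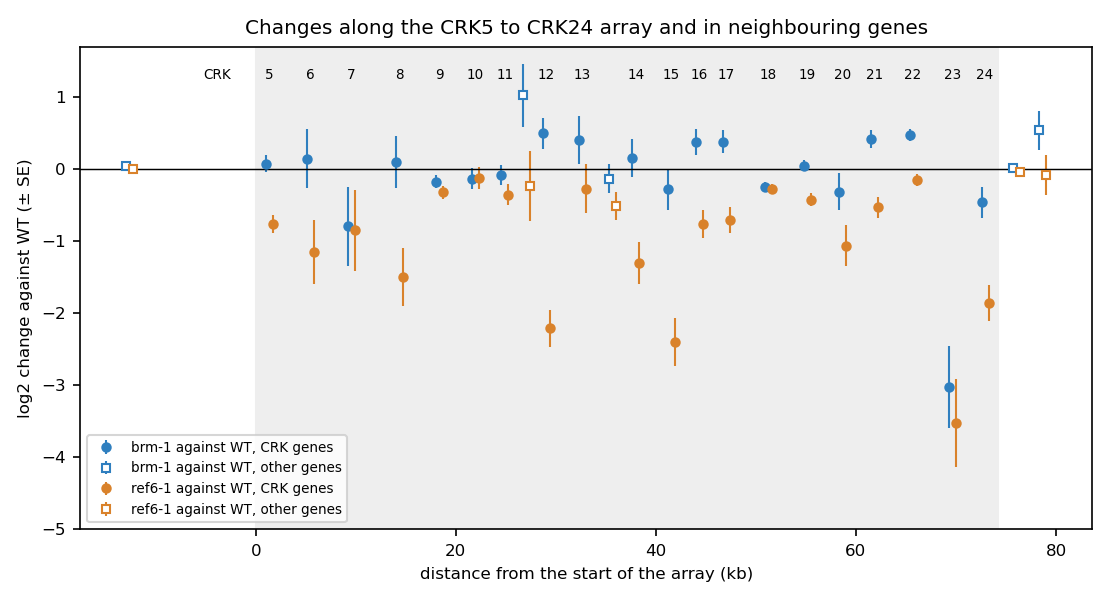
Log2 changes (± SE, n = 3 per group) in brm-1 and in ref6-1, each against the same WT libraries, are drawn at each gene's distance from the start of the array in kilobases, which is shaded. Filled circles are CRK5 to CRK24 and open squares are other genes inside or beside it. All 20 ref6-1 circles lie below 0, from -3.53 for CRK23 to -0.12 for CRK10, whereas 9 of the 20 brm-1 circles do.

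Genes around the array were measured at few loci. Of the 6 loci listed on each side, 3 passed the filter on low counts, and in ref6-1 against WT AT4G23100, the glutathione synthesis gene GSH1, changed by 0.00 ± 0.04, AT4G23330 by -0.04 ± 0.05 and AT4G23340 by -0.08 ± 0.28. None of the 3 passed in any of the 7 comparisons. AT4G23205, annotated as a noncoding RNA, and AT4G23215, annotated as a pseudogene, lie between members of the array and changed by -0.23 ± 0.49 and -0.51 ± 0.20 in ref6-1, which did not pass (edgeR adjusted p = 0.834 and 0.143). AT4G23215 had 11.3 CPM on average in WT and 10.3 in brm-1, against 7.92 in ref6-1 and 3.14 in brm-1 ref6-1, and it was lower in brm-1 ref6-1 than in brm-1 by 1.71 ± 0.23 (edgeR adjusted p = 0.00152). It was also lower in brm-1 ref6-1 than in ref6-1, a change of -1.33 ± 0.24 (edgeR adjusted p = 0.00287).

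In brm-1 against the same WT libraries, 8 members passed, in both directions. In the array 2 members rose and 2 fell, with a median of 0.07, and among the other members 1 rose and 3 fell, with a median of -0.02. Over all genes 10.1% were lower and 8.88% higher. CRK22 (AT4G23300) rose from 51.1, 61.3 and 66.7 CPM in WT to 83.5, 84.8 and 80.5 CPM, a change of 0.48 ± 0.08 (edgeR adjusted p = 0.00151), and CRK27 (AT4G21230, chromosome 4, 11319139 to 11321679) fell from 27.4, 25.9 and 29.4 to 18.9, 19.4 and 19.2 CPM, a change of -0.52 ± 0.07 (edgeR adjusted p = 0.000457). In both genes the groups did not overlap. CRK25 fell by 0.48 ± 0.09 (edgeR adjusted p = 0.00229), and with CRK23, given above as a description, these are the 4 of 8 calls that held without each library. CRK25 and CRK22 share sequence or position with other genes, as described above.

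CRK4 (AT3G45860, chromosome 3, 16863088 to 16866261), which enhances the oxidative burst after pattern recognition and can cause cell death when overproduced, had 85.2, 88.3 and 72.6 CPM in WT. It had 8.72, 9.64 and 42.2 CPM in brm-1, 29.6, 78.7 and 76.9 in ref6-1, and 3.66, 3.65 and 7.25 in brm-1 ref6-1. The brm-1 values lay below WT but replicate 3 stood apart from the other libraries of its genotype, and so did replicate 1 of ref6-1. The change in brm-1 was -2.06 ± 0.55 (edgeR adjusted p = 0.0306), a call lost without any of 5 libraries, up to 0.101 without brm-1 replicate 2. Without brm-1 replicate 3 the change was -3.16 (edgeR adjusted p = 0.00371). CRK18 (-0.25 ± 0.07), CRK21 (0.42 ± 0.13) and CRK42 (0.39 ± 0.12) also passed, with edgeR adjusted p from 0.0336 to 0.0451, and lost it without single libraries, up to 0.107 for CRK18 (without brm-1 replicate 1), 0.148 for CRK21 (without brm-1 replicate 2) and 0.165 for CRK42 (without WT replicate 1). Without WT replicate 1 or brm-1 replicates 1 or 2, 4 members in all passed in brm-1, and 5 without WT replicate 2.

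**Figure D3:**
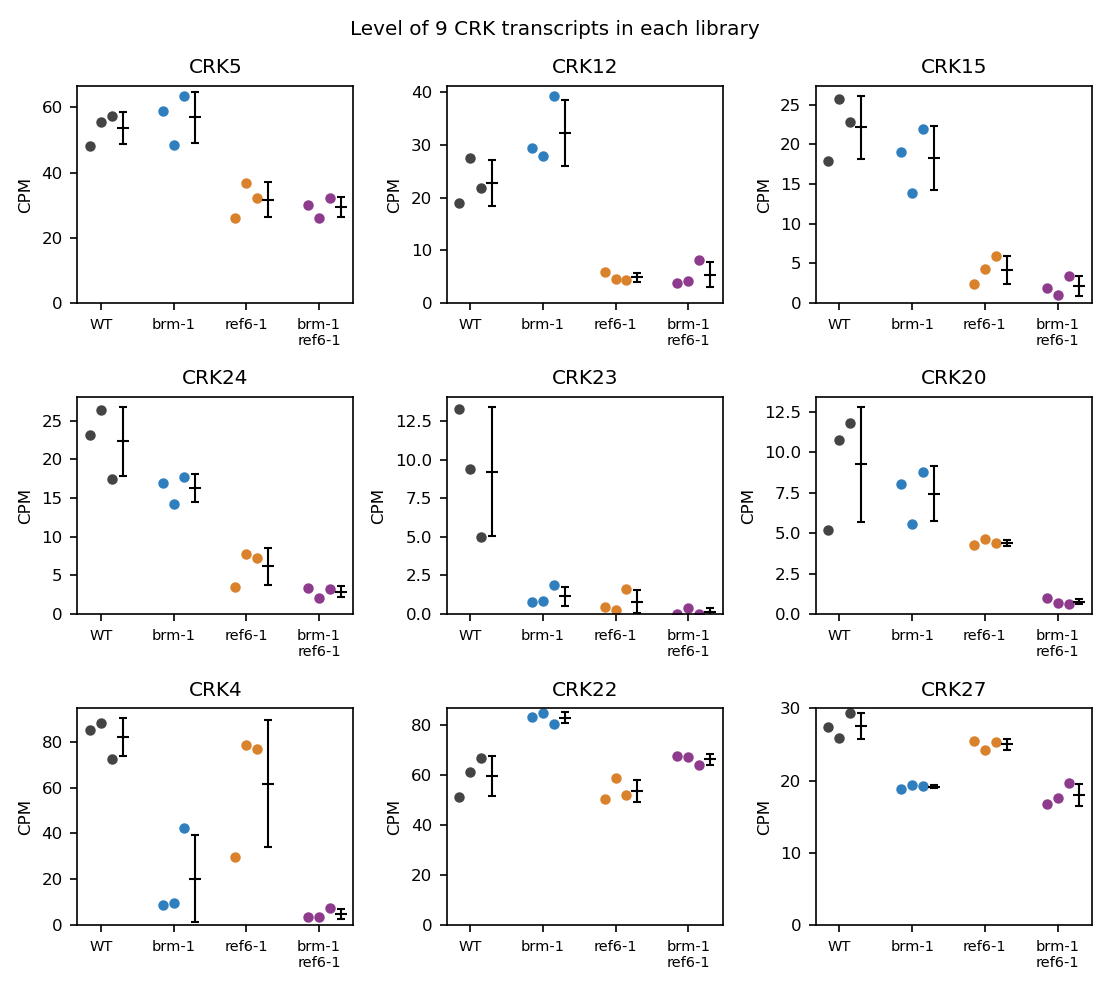
Each panel gives the CPM (linear axis from 0) of a CRK gene in the 3 libraries of each genotype as points, with the mean and SD beside them. CRK5, CRK12, CRK15 and CRK24 are low in both genotypes with ref6-1, CRK23 is low in all 3 mutants, CRK20 and CRK4 are lowest in brm-1 ref6-1, CRK22 is highest in brm-1, and CRK27 is low in both genotypes with brm-1.

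The single mutants were also compared with each other. The family was picked from a comparison of the other 6 libraries, although all 12 enter the fit that sets the spread. In brm-1 against ref6-1, 11 of the 20 array members were higher in brm-1 and 0 were lower, 19 of 20 changes were above 0 and their median was 0.80. Of the other members 3 were higher and 2 lower, with a median of 0.18. With only the brm-1 and ref6-1 libraries in the fit 13 array members were higher, and without single libraries 10 to 13. Over all genes 8.61% were higher and 7.47% lower in brm-1, and the median was near 0.

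CRK12 differed most among the array members, 6.56-fold by the edgeR fit, which is 2.71 ± 0.26 on the log2 scale (edgeR adjusted p = 4.95e-05). CRK15 (2.12 ± 0.33), CRK14 (1.47 ± 0.29), CRK24 (1.40 ± 0.25), CRK16 (1.14 ± 0.19), CRK17 (1.09 ± 0.17), CRK21 (0.95 ± 0.14), CRK5 (0.84 ± 0.13), CRK22 (0.62 ± 0.08) and CRK19 (0.47 ± 0.09) were higher in brm-1 as well, with edgeR adjusted p from 0.00031 to 0.00725. These 10 calls held without each of the 12 libraries. CRK16, CRK17, CRK19 and CRK22 among them share sequence or position with other genes, as described above. CRK8 was higher by 1.60 ± 0.40 (edgeR adjusted p = 0.0171), and this ended without brm-1 replicate 3 (0.0717) or ref6-1 replicate 1.

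Among the other members CRK45, a short member studied in abscisic acid responses, was higher in brm-1 by 0.84 ± 0.16 (edgeR adjusted p = 0.00443), and CRK25 and CRK27 were lower by log2 changes of -0.41 ± 0.09 and -0.38 ± 0.07 (edgeR adjusted p = 0.00759 and 0.00393). CRK39 (AT4G04540, chromosome 4, 2259498 to 2262320) had 3.92, 3.58 and 1.36 CPM in WT and 4.57, 3.55 and 10.6 in brm-1, against 0.0888, 0.556 and 2.47 in ref6-1 and 0.193, 0.494 and 1.12 in brm-1 ref6-1. Its brm-1 libraries lay above its ref6-1 libraries (2.57 ± 0.75, edgeR adjusted p = 0.0391), but the call ended without any of 6 libraries, up to 0.138 without brm-1 replicate 3. CRK40 was higher by 0.43 ± 0.11 (edgeR adjusted p = 0.0259, and 0.0885 without brm-1 replicate 3). The array members that did not pass here were CRK6 (1.30 ± 0.44), CRK20 (0.75 ± 0.28), CRK13 (0.68 ± 0.34), CRK23 (0.51 ± 0.75), CRK11 (0.27 ± 0.14), CRK9 (0.15 ± 0.09), CRK7 (0.07 ± 0.58), CRK18 (0.02 ± 0.07) and CRK10 (-0.01 ± 0.15).

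**Figure D4:**
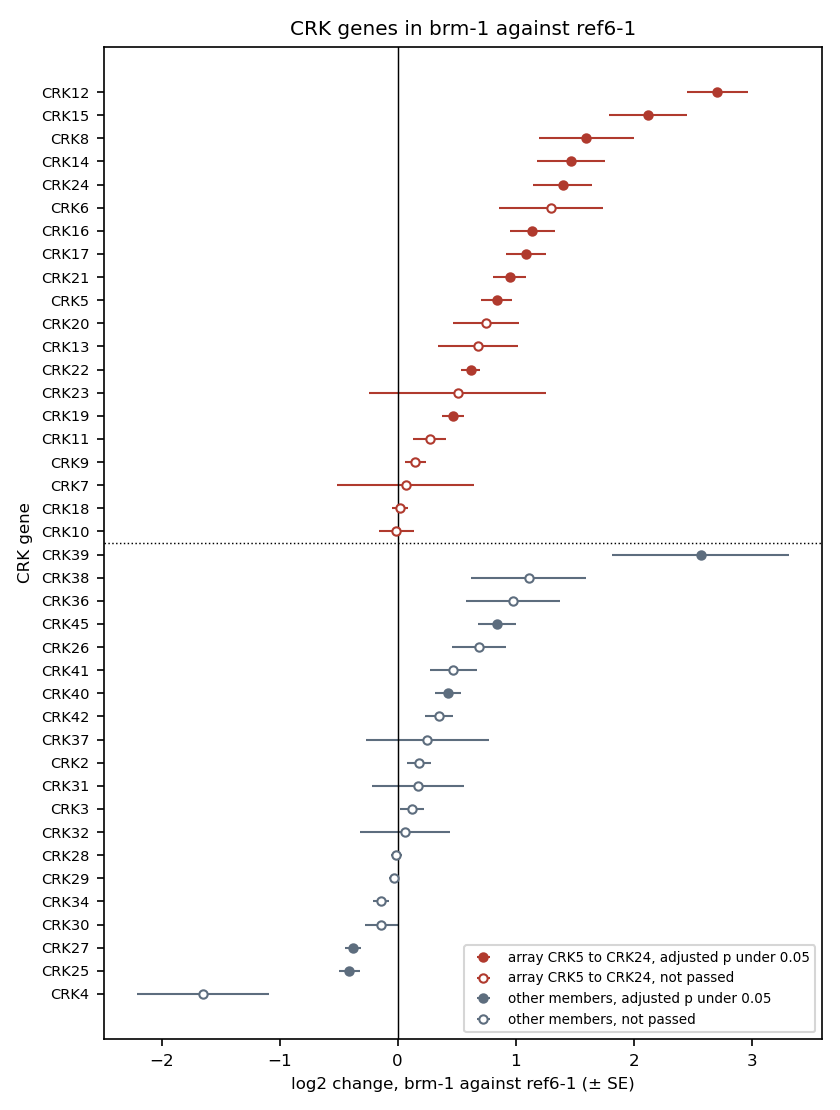
Points give the log2 change (± SE, n = 3 per group) of each measured CRK gene in brm-1 against ref6-1, with array genes above the dotted line and other members below it. Filled points passed an adjusted p under 0.05. In the array 11 points are filled and all of them lie to the right of 0, from 0.47 for CRK19 to 2.71 for CRK12.

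The step from brm-1 to brm-1 ref6-1 was compared next. The combined libraries are those of the comparison from which the family was picked, so these changes are no separate evidence of the falls. In the array 11 members were lower and 0 higher, all 20 changes were below 0, and their median was -1.05. Of the other members 8 were lower and 0 higher, with a median of -0.52. Over all genes 3.27% were lower and 1.12% higher.

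CRK12 (-2.57 ± 0.26), CRK24 (-2.48 ± 0.28), CRK15 (-3.09 ± 0.37), CRK5 (-0.95 ± 0.13), CRK9 (-0.76 ± 0.10) and CRK16 (-1.06 ± 0.19) fell, with edgeR adjusted p from 0.000391 to 0.00848. CRK20 (AT4G23280) had 5.20, 10.8 and 11.8 CPM in WT and 8.04, 5.55 and 8.79 in brm-1, against 4.26, 4.63 and 4.38 in ref6-1 and 0.963, 0.691 and 0.651 in brm-1 ref6-1. The combined libraries were all below those of each other genotype, by 3.26 ± 0.37 against brm-1 (edgeR adjusted p = 0.000535). These 7 calls held without each library.

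The other 12 calls against brm-1 depended on single libraries, most often those of brm-1 ref6-1. CRK6 (AT4G23140, chromosome 4, 12121369 to 12124564), which enhances the oxidative burst like CRK4, had 31.1, 56.0 and 36.7 CPM in WT and 33.9, 27.8 and 75.8 in brm-1, against 11.7, 18.7 and 25.3 in ref6-1 and 9.34, 5.53 and 11.2 in brm-1 ref6-1. It fell by 2.38 ± 0.50 against brm-1 (edgeR adjusted p = 0.0304, 0.114 without brm-1 ref6-1 replicate 2, and 0.147 with limma-voom). CRK8 (-2.02 ± 0.42), CRK14 (-1.68 ± 0.30) and CRK22 (-0.32 ± 0.08) were the remaining array members, with edgeR adjusted p from 0.0135 to 0.0411. Their calls ended without single libraries too, up to 0.0882 for CRK8 (without brm-1 ref6-1 replicate 2), 0.0647 for CRK14 (without brm-1 ref6-1 replicate 1) and 0.12 for CRK22 (without brm-1 replicate 1).

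Outside the array CRK36 to CRK40 are successive members on chromosome 4, and CRK36, CRK37, CRK38 and CRK39 fell against brm-1 while CRK40 (2288616 to 2292965) changed by -0.14 ± 0.11 and did not pass (edgeR adjusted p = 0.552). CRK36 (AT4G04490, 2231717 to 2234689), which interacts with CRK45 in osmotic and abscisic acid responses, had 40.0, 50.2 and 33.0 CPM in WT and 36.8, 27.6 and 42.6 in brm-1, against 6.93, 20.2 and 27.2 in ref6-1 and 5.97, 7.21 and 12.2 in brm-1 ref6-1. CRK37 (AT4G04500, 2238370 to 2240921) had 4.18, 6.24 and 5.34 CPM in WT and 3.64, 1.18 and 5.08 in brm-1, against 1.95, 1.85 and 4.48 in ref6-1 and 0.193, 0 and 0.558 in brm-1 ref6-1. The mean of both genes was lowest in brm-1 ref6-1. For CRK36, however, these libraries overlapped those of ref6-1, and it did not pass in brm-1 ref6-1 against ref6-1. The coefficient of variation of CRK36 was 56.9% in ref6-1 against 21.3% in brm-1 and 21.1% in WT, and that of CRK37 was 53.8% and 59.7% in the single mutants against 19.7% in WT. CRK38 (AT4G04510, 2242072 to 2244930) had 1.96, 4.86 and 3.08 CPM in WT and 3.05, 1.36 and 3.52 in brm-1, against 0.533, 1.11 and 2.01 in ref6-1 and 0.193, 0.395 and 0.372 in brm-1 ref6-1. CRK36 fell by 2.07 ± 0.45, CRK37 by 3.63 ± 0.77 and CRK38 by 3.0 ± 0.63 against brm-1 (edgeR adjusted p = 0.034, 0.0214 and 0.019). Without brm-1 ref6-1 replicate 1 these values were 0.135, 0.0893 and 0.0781, and all 3 calls also ended with limma-voom (0.0857, 0.0828 and 0.0632). CRK39 (-3.33 ± 0.83), CRK41 (-1.06 ± 0.21), CRK45 (-0.82 ± 0.16), CRK28 (-0.23 ± 0.05) and CRK32 (-1.79 ± 0.47) passed with edgeR adjusted p from 0.0172 to 0.0497. These 5 calls ended without single libraries, up to 0.162 for CRK39, 0.0893 for CRK41 and 0.17 for CRK32 (without brm-1 ref6-1 replicate 1), and up to 0.0792 for CRK45 and 0.108 for CRK28 (without brm-1 ref6-1 replicate 2).

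Of the other members lower in brm-1 ref6-1 than in brm-1, 0 passed without brm-1 ref6-1 replicate 2 or without brm-1 replicate 3, 1 passed without brm-1 ref6-1 replicate 1, where 1 was also higher, 4 without brm-1 replicates 1 or 2, and 5 without WT replicate 1 or ref6-1 replicate 2. The array count of 11 was 7 without brm-1 ref6-1 replicates 1 or 2. Without brm-1 ref6-1 replicate 3, the library with 438 BRM counts, 9 array members and 7 other members were lower.

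In brm-1 ref6-1 against ref6-1, 4 array members were lower and 2 higher, with a median of -0.27, and 6 of the other members were lower and 0 higher, with a median of -0.26. Over all genes 6.56% were lower and 5.39% higher. The combined libraries are again those from which the family was picked, so these changes are no separate evidence of the falls either. CRK20 fell by 2.51 ± 0.39 (edgeR adjusted p = 0.00129), CRK9 by 0.61 ± 0.10 (0.00156), CRK27 by 0.47 ± 0.08 (0.00152) and CRK28, known to associate with immune receptors and to raise resistance when overproduced, by 0.24 ± 0.05 (0.00928). These 4 of the 12 calls held without each library. CRK12, with 5.39 ± 2.42 CPM in brm-1 ref6-1 and 4.90 ± 0.843 in ref6-1 (SD, n = 3), changed by 0.14 ± 0.31 and CRK5 by -0.10 ± 0.14, and neither passed (edgeR adjusted p = 0.816 and 0.707).

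CRK4 (-3.65 ± 0.73) and CRK37 (-3.38 ± 0.78) fell most against ref6-1 (edgeR adjusted p = 0.0123 and 0.0149). Their calls ended without brm-1 ref6-1 replicate 1 (0.0562 and 0.0626), and with limma-voom (0.119 and 0.0551). CRK7 (AT4G23150, chromosome 4, 12125664 to 12128490) had 13.5, 20.9 and 6.42 CPM in WT and 7.45, 4.37 and 11.9 in brm-1, against 2.31, 8.34 and 12 in ref6-1 and 1.54, 0.790 and 0.929 in brm-1 ref6-1. The combined libraries lay below all others (-2.78 ± 0.77 against ref6-1, edgeR adjusted p = 0.0433), but the call ended without any of 7 libraries, up to 0.138 without brm-1 ref6-1 replicate 2. CRK32 (AT4G11480, chromosome 4, 6971401 to 6973962) had 2.64, 3.40 and 1.90 CPM in WT and 1.02, 2.37 and 1.37 in brm-1, against 1.51, 1.85 and 1.19 in ref6-1 and 0.289, 0.592 and 0.465 in brm-1 ref6-1, a fall of 1.73 ± 0.47 against ref6-1 (edgeR adjusted p = 0.0303, and 0.111 without brm-1 ref6-1 replicate 1). CRK24 (-1.08 ± 0.31) and CRK34 (-0.28 ± 0.07) fell as well and CRK21 (0.51 ± 0.14) and CRK22 (0.30 ± 0.08) rose, with edgeR adjusted p from 0.0217 to 0.0439. These calls ended without single libraries, up to 0.153 for CRK24 (without brm-1 ref6-1 replicate 2), 0.0878 for CRK34 (without ref6-1 replicate 2), 0.147 for CRK21 (without brm-1 ref6-1 replicate 1) and 0.111 for CRK22 (without ref6-1 replicate 3).

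The total of members that changed against ref6-1 was 5 without brm-1 ref6-1 replicates 1 or 2, 7 without ref6-1 replicate 2 and 8 without ref6-1 replicate 3. The 4 lower array members were 2 without WT replicate 1, brm-1 replicate 1, ref6-1 replicates 2 or 3 or any brm-1 ref6-1 library, and the 2 higher ones were 0 without ref6-1 replicate 1 or any brm-1 ref6-1 library and 1 without ref6-1 replicates 2 or 3 or any brm-1 library. The 6 lower members outside the array were 3 without brm-1 ref6-1 replicates 1 or 2 and 4 without ref6-1 replicate 2.

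Whether the effect of adding ref6-1 depended on brm-1 was tested with the interaction, the log2 change of brm-1 ref6-1 against brm-1 minus that of ref6-1 against WT. By edgeR 0 of the 40 members passed, 6 had an unadjusted p under 0.05, and 0.245% of all genes passed. DESeq2 called 1 member and edgeR without the filter on low counts 1. CRK28 had the smallest edgeR adjusted p (0.0516, with an interaction of -0.39 ± 0.07), followed by CRK20 (0.104, -2.20 ± 0.48). An interaction that misses the threshold does not show that the changes were equal. The WT and brm-1 ref6-1 libraries, from which the family was picked, both enter it.

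In brm-1 ref6-1 against WT, the comparison behind the choice of the family, 19 of the 20 array changes and 15 of the 20 others were below 0. Past the threshold used above, 15 array members were lower and 0 higher, and 11 other members were lower and 2 higher. Over all genes 17.3% were lower and 14% higher, and nothing is read from the members' counts. The medians were -0.90 in the array and -0.49 among the others. CRK23 stood lowest at -6.05, a value that rests on 4 counts in 1 of the 3 combined libraries and ran from -9.66 to -5.48 when single libraries were left out. It was followed by CRK37 (-4.30), CRK4 (-4.07), CRK7 (-3.63), CRK20 (-3.57), CRK15 (-3.37) and CRK38 (-3.32). CRK30 (0.56) and CRK42 (0.44) were higher, and CRK31 (-1.62), CRK41 (-0.96) and CRK11 (-0.58) were among the lower members. CRK2 (-0.05), CRK3 (0.01), CRK29 (0.06), CRK40 (0.02) and CRK21 (-0.01) were near the WT level.

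Genes of the pathways in which CRKs act were counted for the same comparisons. In brm-1 ref6-1 against WT, 13 of 23 defence and reactive oxygen genes fell and 1 rose, with a median of -0.35. Over all genes 17.3% were lower and 14% higher there, 5.63% and 2.33% in ref6-1 against WT, and 10.1% and 8.88% in brm-1 against WT. These shares were 7.47% lower and 8.61% higher in brm-1 against ref6-1. They were 3.27% and 1.12% in brm-1 ref6-1 against brm-1, and 6.56% and 5.39% against ref6-1. The list was not tested as a set. Of the same list 1 rose and 2 fell in ref6-1, namely FLS2, the flagellin receptor (0.20 ± 0.05, edgeR adjusted p = 0.0211), PR5, a pathogenesis-related protein (-0.51 ± 0.09, 0.00389), and PAD4, which acts upstream of salicylic acid (-0.45 ± 0.11, 0.0328). The calls of FLS2 and PAD4 ended without single libraries, up to 0.0894 without WT replicate 1 and 0.0961 without WT replicate 2. In brm-1 FLS2 rose (0.53 ± 0.05, edgeR adjusted p = 1.94e-05) and RBOHF, an NADPH oxidase gene, fell (-0.35 ± 0.06, 0.00196). In brm-1 against ref6-1, 5 were higher and 1 lower, with ICS1, the enzyme of salicylic acid synthesis, 0.75 ± 0.17 higher in brm-1 (edgeR adjusted p = 0.0127). Against brm-1 2 fell in brm-1 ref6-1, ICS1 (-1.19 ± 0.17, edgeR adjusted p = 0.00557) and PBS3, which also acts in that synthesis (-2.04 ± 0.41, 0.0277, and 0.11 without brm-1 ref6-1 replicate 1), and against ref6-1 FLS2 (0.26 ± 0.05) rose and RBOHF (-0.29 ± 0.06) fell. The median change of the list in ref6-1 was -0.25, against -0.76 for the array and -0.32 for the other members, differences that were not tested.

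The 9 other genes of DUF26 proteins encode plasmodesmata-located proteins and a secreted protein. In ref6-1 1 fell, CRRSP38 (-0.48 ± 0.09, edgeR adjusted p = 0.00696), and 0 rose, with a median of -0.01, and in brm-1 PDLP3 (0.20 ± 0.06, a call lost without any of 4 libraries, up to an edgeR adjusted p of 0.149 without brm-1 replicate 2) and PDLP7 (0.38 ± 0.09) rose. Over all genes 5.63% were lower and 2.33% higher in ref6-1, and 10.1% lower and 8.88% higher in brm-1. The summed level of these 9 genes was 255 to 263 CPM in WT and 234 to 242 CPM in ref6-1. The summed level of the 20 array genes was 826 to 1044 CPM in WT, 905 to 1063 in brm-1, 540 to 719 in ref6-1 and 597 to 628 in brm-1 ref6-1, and that of the other members was 728 to 840, 727 to 839, 632 to 767 and 616 to 658 CPM. The array sums of the 2 genotypes with ref6-1 did not overlap those of the 2 without it. This is a description only, since the family was picked from a comparison of the WT and brm-1 ref6-1 libraries.

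Markers of tissues were set beside these levels. The sum of 4 senescence genes was 141 to 162 CPM in WT, 106 to 145 in brm-1, 63.8 to 101 in ref6-1 and 51.1 to 109 in brm-1 ref6-1, with SAG12 below the filter, and SAG29 changed by -2.63 ± 0.49 in ref6-1 (edgeR adjusted p = 0.0118, and 0.0519 without ref6-1 replicate 1). The sum of 7 root genes was 274 to 332 CPM in WT, 242 to 280 in brm-1, 224 to 271 in ref6-1 and 242 to 273 in brm-1 ref6-1, and that of 4 leaf genes was 360 to 410 CPM over all libraries. Single genes of these lists went in both directions. Of the 7 root genes 1 rose and 1 fell in brm-1 against WT, and 1 fell in ref6-1 against WT. Of the 4 leaf genes 2 rose and 1 fell in brm-1, and 1 fell in ref6-1. In brm-1 ref6-1 against WT 1 gene rose and 1 fell in each list. Over all genes 10.1% were lower and 8.88% higher in brm-1, and 5.63% and 2.33% in ref6-1. These shares were 17.3% and 14% in brm-1 ref6-1. The sum of 3 seed genes was 0.170 to 0.826 CPM in WT, 4.89 to 35.4 in brm-1, 0.888 to 2.13 in ref6-1 and 35.2 to 91.4 in brm-1 ref6-1, and that of 4 floral genes was 13.4 to 17 CPM in WT, 55.5 to 63.5 in brm-1, 33.6 to 35.1 in ref6-1 and 72 to 85.1 in brm-1 ref6-1. Of the 3 senescence genes tested, 1 fell in ref6-1, 2 fell in brm-1 ref6-1 against WT and 0 changed in brm-1 ref6-1 against brm-1, where the sums overlap. In these 3 comparisons 5.63%, 17.3% and 3.27% of all genes were lower. The mean of NAC2/ORE1 was 50.4 CPM in WT and 47.2 CPM in brm-1, against 43.5 CPM in ref6-1 and 44.8 CPM in the combined libraries. SEP3 made up most of the floral sum, with a mean of 7.96 CPM in WT and 62.7 CPM in the combined libraries. The floral genes did not all move together. The mean of AG was 1.15 CPM in ref6-1 against 2.57 CPM in WT. It dropped from 5.89 to 2.04 CPM when ref6-1 was added to brm-1. Of the 3 floral genes tested in that step, 2 rose and 1 fell, and AP3 was below the filter. The part of these marker differences in the CRK results was not tested.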

How the data were processed

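Read counts per locus, as deposited by the authors, were analysed. Alignments were made with TopHat2 against TAIR10, per the submitters' processing notes; neither the counting tool nor its strand setting is stated in the sources used here. All 12 libraries entered a single fit in edgeR 4.0.16 (R 4.3.3), with a mean per genotype, TMM normalization and the filterByExpr filter, which kept 22076 of 29420 loci (3472 held 0 throughout). Tests were two-sided quasi-likelihood F tests, adjusted after Benjamini-Hochberg, with a threshold of 0.05. SE values come from the F statistic, and CPM uses the normalized library size. As alternatives DESeq2 1.42.0, edgeR with size factors of DESeq2, and limma-voom (limma 3.58.1) were run, and other count filters, only the groups compared, a replicate block, and leaving out each library. Exact shared stretches of 100 bases, protein identities (global alignment) and motifs came from TAIR10.1. Members, lists and tests were chosen with earlier results of these data known. Every member is named. Values per library are given for the 16 members with the largest change in a comparison they passed, leaving aside brm-1 ref6-1 against WT, and CRK23, and for others in the text after their values were seen. Floors cover counting error only.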

Additional observations from a re-analysis of the deposited data

How the results depend on the processing

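Of 98 calls of members over the 6 pairwise comparisons, 28 of them in brm-1 ref6-1 against WT and so a description only, DESeq2 lost 4, limma-voom 18, DESeq2 size factors 0, no filter on low counts 9, only the groups compared 17 and the replicate block 8, and leaving out each library lost 11 to 31. At least 1 CPM in 6 libraries lost 0 of the 95 it could test, and 0 calls were reversed under these settings. Without single libraries, the members that changed numbered 4 to 9 in brm-1 against WT (8 with all libraries), 7 to 14 in ref6-1 against WT (15), 22 to 30 in brm-1 ref6-1 against WT (28), 7 to 21 against brm-1 (19), 5 to 12 against ref6-1 (12), 14 to 18 in brm-1 against ref6-1 (16) and 0 to 1 in the interaction (0). Array members lower in ref6-1 numbered 6 to 13 (14), other members lower in ref6-1 1 to 3 (1), and array members higher in brm-1 than in ref6-1 10 to 13 (11). With only the groups compared, 6 members changed in ref6-1 against WT, 5 of them in the array and lower. With limma-voom 12 changed in brm-1 ref6-1 against brm-1 and 7 against ref6-1. The interaction had 1 call with DESeq2 and 1 with no filter on low counts. Other causes of these differences were not tested, and fewer samples entered the fits without a library or with only the groups compared. Same-numbered libraries deviated together with a correlation of -0.189 to 0.291 over 18 pairs (median 0.0544), so the numbers were not taken to pair samples, and with the replicate block 14 members changed in ref6-1 against WT and 17 in brm-1 against ref6-1. Low counts limit CRK23, CRK32, CRK37, CRK38 and CRK39 among others.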

Other observations

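Levels of 4 pairs of members with alike proteins are set side by side. CRK19 and CRK20 were 82.3% identical, and CRK19 had 109 ± 3.91 CPM in WT and 91.8 ± 2.04 in brm-1 ref6-1, and CRK20 had 9.26 ± 3.55 and 0.768 ± 0.170 CPM (SD, n = 3). CRK39 and CRK40 were 79.1% identical, and CRK39 had 2.95 ± 1.39 CPM in WT and 0.601 ± 0.471 in brm-1 ref6-1, while CRK40 had 93.8 ± 12.9 and 95.2 ± 2.91 CPM. CRK31 and CRK32, at 79.9%, had 4.18 ± 0.914 and 2.65 ± 0.748 CPM in WT, and 1.35 ± 0.456 and 0.449 ± 0.152 CPM in brm-1 ref6-1. CRK28 and CRK29, at 80.7% and overlapping on the chromosome, had 44.5 ± 1.89 and 92.1 ± 6.18 CPM in WT, and 42.1 ± 2.64 and 96.0 ± 1.21 CPM in brm-1 ref6-1. These pairs were picked after their values were seen, and the differences between their members were not tested.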
